A study of Mus musculus with 6 samples.

Results

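Ly6C low patrolling monocytes were represented here by 10 marker genes, which were followed through the RNA of splenic monocytes from mice with and without the interleukin-4 receptor α chain. The genes were picked by name: *Nr4a1* and *Pou2f2*, which encode transcription factors, *Cx3cr1*, *Spn*, *Treml4*, *Cd300e* and *Adgre4*, which encode surface receptors, and *Ace*, *Ear2* and *Eno3*, which encode enzymes. All 10 are among the 55421 genes counted, and all 10 were among the 13849 genes with enough reads for a test. The study compared 3 IL-4Rα+/+ with 3 IL-4Rα-/- mice of the C57BL/6 strain, with 1 library of splenic monocytes per mouse. The IL-4Rα-/- mice lack a functional receptor chain in every cell from the germline on, so a difference between the genotypes need not arise within monocytes. The mice received no treatment that the labels name, and the labels give neither age nor sex. The monocytes were enriched from spleen cell suspensions by removing other cells with antibodies, without sorting the Ly6C high and Ly6C low cells apart, so each library is a mixture of both. In such a mixture, fewer cells of a type and less RNA per cell cannot be told apart.

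Ly6C high monocytes leave the bone marrow, enter inflamed tissue and can turn into macrophages or into Ly6C low monocytes. Ly6C low monocytes crawl along the inner wall of blood vessels, where they survey and clear the endothelium, and they depend on the nuclear receptor *Nr4a1* for their formation and survival. They carry much of the fractalkine receptor *Cx3cr1* and of *Spn* (CD43), and little of Ly6C itself. The spleen holds a reservoir of both kinds of monocyte.

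All 10 genes had lower mean levels in IL-4Rα-/- than in IL-4Rα+/+ monocytes, with log2 fold changes from -0.56 to -0.24. A lower value was found for 48.5% of all genes tested. None of the 10 differences passed the main test, edgeR's, against the spread between mice, nor did any of the 13849 genes tested. The genotypes overlapped in each of the 10 genes, while 15.5% of all genes tested did not overlap. The larger contrast lay between mice of the same genotype. IL-4Rα+/+ replicates 1 and 2 and IL-4Rα-/- replicate 1 had every one of the 10 genes above its mean over the libraries, while IL-4Rα+/+ replicate 3 and IL-4Rα-/- replicate 2 had every one below it. Genes known from Ly6C high monocytes had, in their mean log2 level, the opposite order over the same 6 mice.

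Between 26807281 and 29033297 reads per library fell on genes. Levels are given as CPM, the read counts of a gene per fixed library total,, scaled between libraries by edgeR's TMM factors. *Il4ra*, the targeted gene, was at 137, 128 and 177 CPM in IL-4Rα+/+ replicates 1, 2 and 3 and at 27.9, 79.4 and 31.8 CPM in IL-4Rα-/- replicates 1, 2 and 3. The genotypes did not overlap in *Il4ra*, whose log2 fold change was -1.67 (adjusted p = 0.618 in edgeR and 0.0111 in DESeq2), and among the IL-4Rα-/- libraries replicate 2 kept the most of its RNA. The general monocyte genes *Csf1r*, at 2227 to 3095 CPM, and *Lyz2*, at 8847 to 17025 CPM, were high in every library. Of 9 general monocyte genes, 6 had a higher and 3 a lower mean in IL-4Rα-/- monocytes, and 0 were called. This list shares genes with the lists used below, among them *Lyz2* with the Ly6C high and *Csf1r* with the wider Ly6C low list. *Xist*, the RNA of the inactive X chromosome, was at 553 CPM in IL-4Rα+/+ replicate 1 and at 457 CPM in IL-4Rα-/- replicate 3, and at no more than 3.73 CPM in the other libraries.

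*Nr4a1* (ENSMUSG00000023034.7) spans 101254269 to 101274795 of chromosome 15 (GRCm38, plus strand). Its product is an orphan nuclear receptor, and the gene is also switched on within minutes as an immediate early gene in many stimulated cells. The 250 bases before its RefSeq start, at chr15:101266596-101266845 on the plus strand of GRCm38.p6, are shown because they hold 4 copies of 1 short word. This start lies inside the gene as Gencode annotates it. The capitals mark TGCGTCA, a sequence close to the cyclic AMP response element TGACGTCA.

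Nr4a1 promoter: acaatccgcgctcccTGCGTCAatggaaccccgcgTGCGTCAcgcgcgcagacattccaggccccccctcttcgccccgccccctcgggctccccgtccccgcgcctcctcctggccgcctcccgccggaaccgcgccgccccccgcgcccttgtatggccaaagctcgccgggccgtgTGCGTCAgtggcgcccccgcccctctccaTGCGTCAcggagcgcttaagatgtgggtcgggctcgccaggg

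The copies begin 235, 215, 71 and 42 bases before the start, all on the plus strand. The word TGCGTCA was added to the search after the promoters had been read. On either strand it was present in 1.75% of the 32851 RefSeq promoter windows of this length, and the window of *Nr4a1* was the only window with 4 copies or more, a share of 0.00304%. The window had 74.4% G and C and 34 CpG dinucleotides, against medians of 52.4% and 6 over all windows.

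*Nr4a1* was at 1439, 1209 and 828 CPM in IL-4Rα+/+ replicates 1, 2 and 3 and at 1024, 539 and 1116 CPM in IL-4Rα-/- replicates 1, 2 and 3. 2 of the 3 IL-4Rα-/- libraries lay inside the IL-4Rα+/+ range and replicate 2 lay below it. The means were 1159 ± 308 CPM (SD, n = 3) in IL-4Rα+/+ and 893 ± 310 CPM (SD, n = 3) in IL-4Rα-/- monocytes. The log2 fold change was -0.38 with a standard error of 0.31 (edgeR's quasi-likelihood test, adjusted p = 0.729). Its relatives were much lower, with *Nr4a2* at 1.16 to 1.93 CPM and *Nr4a3* at 1.54 to 9.13 CPM. *Nr4a3* had its highest level in IL-4Rα+/+ replicate 1 and its lowest in IL-4Rα-/- replicate 2, as *Nr4a1* did.

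As *Nr4a1* is itself an immediate early gene, others of that class were read beside it. In IL-4Rα+/+ replicate 1, which had the most *Nr4a1*, *Fos* was at 109 CPM. In IL-4Rα-/- replicate 2, which had the least *Nr4a1*, *Fos* was at 488 CPM. The highest *Fos* level, 520 CPM, was found in IL-4Rα+/+ replicate 3. Of 15 immediate early genes, 13 lay above their own mean in IL-4Rα+/+ replicate 3 and 10 in IL-4Rα-/- replicate 2. All 10 Ly6C low genes lay below theirs in these libraries. In IL-4Rα-/- replicate 3 it was also 10 of the 15, although 8 of the 10 Ly6C low genes lay above their mean there. Of these 15 genes, 11 had a higher and 4 a lower mean in IL-4Rα-/- monocytes, with a median log2 fold change of 0.13 and 0 called.

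*Pou2f2* (ENSMUSG00000008496.19), on the minus strand of chromosome 7 from 25087344 to 25179726, encodes OCT2, a factor that binds octamer sequences and is best known from B cells. Its levels were 698, 559 and 354 CPM in IL-4Rα+/+ replicates 1, 2 and 3 and 553, 304 and 502 CPM in IL-4Rα-/- replicates 1, 2 and 3. Only IL-4Rα-/- replicate 2 lay below the IL-4Rα+/+ range. The log2 fold change was -0.24 with a standard error of 0.30 (edgeR, adjusted p = 0.803). B cells also express *Pou2f2*, and the summed levels of B cell genes are given with those of the other cell types.

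**Figure D1:**
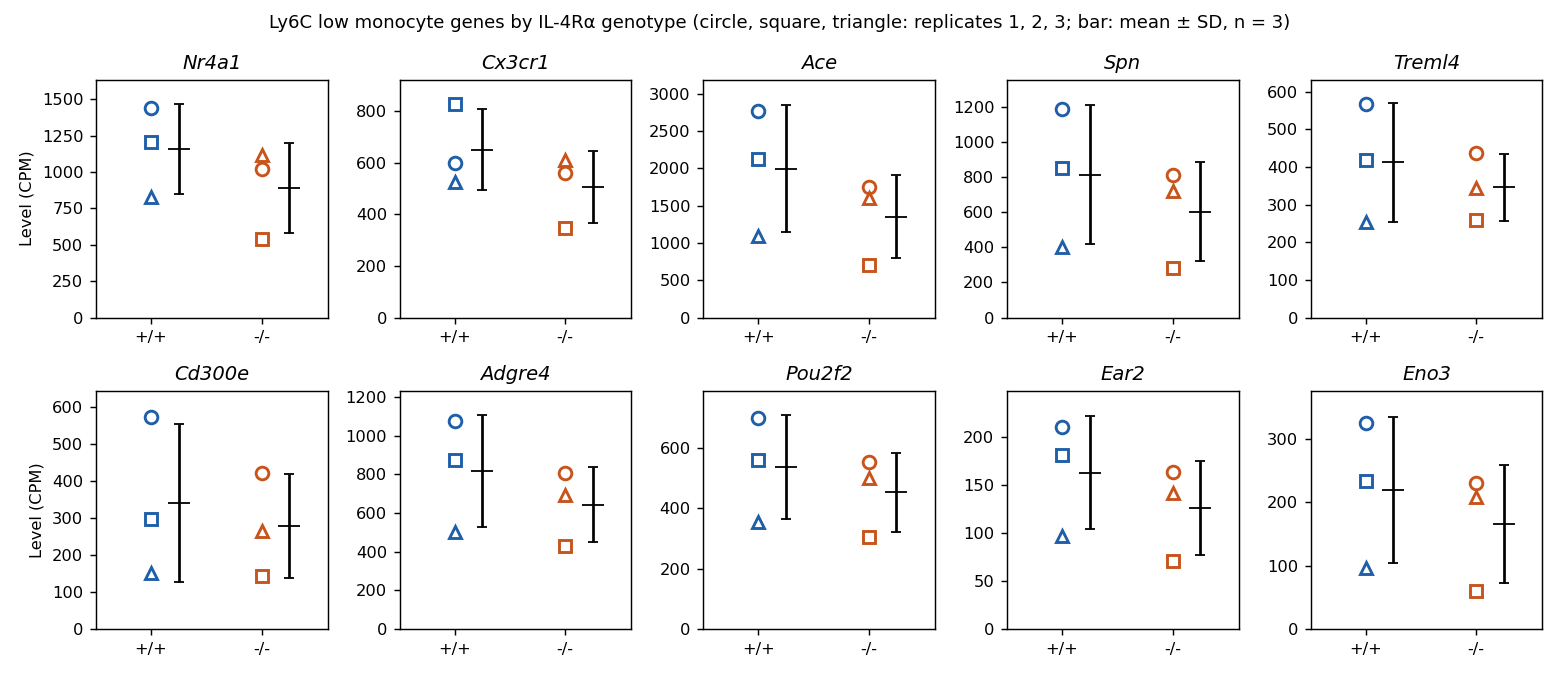
Level of each of the 10 Ly6C low genes in CPM on a linear axis from 0, for IL-4Rα+/+ (blue) and IL-4Rα-/- (orange) monocytes, with 1 symbol per mouse and the mean ± SD (n = 3) beside it. The genotypes overlap in every gene, and IL-4Rα+/+ replicate 3 (blue triangle) and IL-4Rα-/- replicate 2 (orange square) lie low in each panel.

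Among the surface receptors, *Cx3cr1* (ENSMUSG00000052336.7, chromosome 9, minus strand, 119901616 to 120069879) encodes the receptor for fractalkine, a chemokine held on the endothelium. It was at 599, 829 and 526 CPM in IL-4Rα+/+ replicates 1, 2 and 3 and at 561, 346 and 612 CPM in IL-4Rα-/- replicates 1, 2 and 3. It was the only gene of the 10 with its highest level in IL-4Rα+/+ replicate 2, and only IL-4Rα-/- replicate 2 lay below the IL-4Rα+/+ range. The means were 651 ± 158 and 506 ± 141 CPM (SD, n = 3 each), with a log2 fold change of -0.36 and a standard error of 0.25 (edgeR, adjusted p = 0.688). An annotated gene on the opposite strand, *Gm33858*, overlaps 78 bases of its exons, or 1.73% of their length. Which strand was counted is not given in the sources used here.

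*Spn* (ENSMUSG00000051457.7, chromosome 7, minus strand, 127132232 to 127137823) encodes CD43, a large sialic acid-bearing surface protein used in flow cytometry to mark Ly6C low monocytes. Its levels were 1186, 849 and 401 CPM in IL-4Rα+/+ replicates 1, 2 and 3 and 808, 280 and 722 CPM in IL-4Rα-/- replicates 1, 2 and 3. The highest level was 4.24 times the lowest, and the log2 fold change between genotypes was -0.43 with a standard error of 0.50 (edgeR, adjusted p = 0.789).

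*Treml4* (ENSMUSG00000051682.15, chromosome 17, plus strand, 48264295 to 48275360) encodes an immunoglobulin-like receptor of the TREM family. The 250 bases before its start, at chr17:48264045-48264294 on the plus strand of GRCm38.p6, are shown as an example of a sequence found in windows of 4 of the 10 genes. The capitals mark it, a match to CCAATNA, the binding sequence of the NF-Y factor, 40 bases before the start.

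Treml4 promoter: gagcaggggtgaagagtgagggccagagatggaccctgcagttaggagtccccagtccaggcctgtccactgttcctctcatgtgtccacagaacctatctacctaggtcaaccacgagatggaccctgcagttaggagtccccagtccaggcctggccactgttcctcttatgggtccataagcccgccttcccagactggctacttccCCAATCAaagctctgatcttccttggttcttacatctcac

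*Treml4* was at 566, 418 and 253 CPM in IL-4Rα+/+ replicates 1, 2 and 3 and at 436, 259 and 344 CPM in IL-4Rα-/- replicates 1, 2 and 3. All 3 IL-4Rα-/- libraries lay inside the IL-4Rα+/+ range, and it was the only gene of the 10 with its lowest level in IL-4Rα+/+ replicate 3. Its log2 fold change was -0.25 with a standard error of 0.31 (edgeR, adjusted p = 0.803).

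*Cd300e* (ENSMUSG00000048498.7, chromosome 11, minus strand, 115051917 to 115062177) encodes an activating receptor of monocytes. Its levels were 572, 297 and 151 CPM in IL-4Rα+/+ replicates 1, 2 and 3 and 422, 143 and 265 CPM in IL-4Rα-/- replicates 1, 2 and 3. The genotypes were closest in this gene relative to its spread, with 2.51% of the variance of log2 CPM lying between them. The log2 fold change was -0.30 with a standard error of 0.55 (edgeR, adjusted p = 0.862), and it was 0.30 without IL-4Rα+/+ replicate 1 and 0.01 without IL-4Rα-/- replicate 2.

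*Adgre4* (ENSMUSG00000032915.6, chromosome 17, plus strand, 55749984 to 55853662) encodes an adhesion receptor coupled to G proteins, a relative of the macrophage marker F4/80. It was at 1074, 871 and 502 CPM in IL-4Rα+/+ replicates 1, 2 and 3 and at 806, 427 and 695 CPM in IL-4Rα-/- replicates 1, 2 and 3. Only IL-4Rα-/- replicate 2 lay below the IL-4Rα+/+ range, and the log2 fold change was -0.34 with a standard error of 0.33 (edgeR, adjusted p = 0.758).

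Among the enzymes, *Ace* (ENSMUSG00000020681.14, chromosome 11, plus strand, 105967945 to 105989964) encodes angiotensin converting enzyme, a peptidase on the cell surface. RefSeq gives it a pair of starts, and the 250 bases before the first of them lie at chr11:105967698-105967947 on the plus strand of GRCm38.p6. They are shown because the TATA box, TATAAA, was found in no other window of the 10 genes. The capitals mark it on the minus strand, written here as TTTATA, beginning 31 bases before the start.

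Ace promoter: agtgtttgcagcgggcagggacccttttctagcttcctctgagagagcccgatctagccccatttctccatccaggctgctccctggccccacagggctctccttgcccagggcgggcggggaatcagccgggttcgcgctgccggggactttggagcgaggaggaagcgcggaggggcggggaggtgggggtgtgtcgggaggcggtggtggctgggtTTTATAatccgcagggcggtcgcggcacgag

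*Ace* was at 2774, 2123 and 1088 CPM in IL-4Rα+/+ replicates 1, 2 and 3 and at 1745, 710 and 1604 CPM in IL-4Rα-/- replicates 1, 2 and 3. It had the most reads of the 10 genes and the lowest log2 fold change among them. The means were 1995 ± 851 and 1353 ± 561 CPM (SD, n = 3 each), and the log2 fold change was -0.56 with a standard error of 0.43 and a 95% interval from -1.41 to 0.29 (edgeR, adjusted p = 0.714). The opposite-strand gene *Gm11651* overlaps 295 bases, or 5.58%, of its exons and held at most 29 counts in a library, against 20270 to 78958 counts for *Ace*.

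*Ear2* (ENSMUSG00000072596.4, chromosome 14, plus strand, 44102654 to 44103534) encodes a ribonuclease first found in eosinophils. It was at 211, 181 and 96.9 CPM in IL-4Rα+/+ replicates 1, 2 and 3 and at 164, 71.1 and 142 CPM in IL-4Rα-/- replicates 1, 2 and 3. The log2 fold change was -0.37 with a standard error of 0.38 (edgeR, adjusted p = 0.767). Of the 645 windows of 75 bases in its transcript, the length of a read, 151 (23.4%) occur unchanged in another annotated gene, among them *Ear10* and *Ear1*. Only uniquely mapped reads were counted, so the counts of *Ear2* leave out part of its transcript and its level per length is a low estimate.

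The relatives of *Ear2* had few reads of their own, with *Ear1* at 0.217 to 1.83 CPM, *Ear6* at 0.491 to 2.33 CPM, *Ear10* at no more than 0.0351 CPM and *Ear14* at 0 counts in all 6 libraries. Since eosinophils express these ribonucleases, their marker *Epx*, the eosinophil peroxidase, was read beside *Ear2*. *Epx* was at 1.51, 0 and 0.264 CPM in IL-4Rα+/+ replicates 1, 2 and 3 and at 1.39, 2.31 and 2.94 CPM in IL-4Rα-/- replicates 1, 2 and 3. *Ear2* was high in IL-4Rα+/+ replicate 2, where *Epx* had no reads but *Ccr3*, another eosinophil gene, was at 67.1 CPM. Of 7 eosinophil genes, 2 lay above their own mean in that library. *Ear2* was lowest in IL-4Rα-/- replicate 2, where 5 of the 7 did so. *Epx* was added after its values were seen, and the part of eosinophils in the level of *Ear2* was not tested.

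*Eno3* (ENSMUSG00000060600.15, chromosome 11, plus strand, 70657202 to 70662513) encodes the β-enolase of glycolysis, a form otherwise typical of muscle. Its levels were 325, 234 and 96.8 CPM in IL-4Rα+/+ replicates 1, 2 and 3 and 230, 59.5 and 209 CPM in IL-4Rα-/- replicates 1, 2 and 3. The highest level was 5.46 times the lowest, the widest span of the 10 genes. The log2 fold change was -0.40 with a standard error of 0.59 and a 95% interval from -1.55 to 0.76 (edgeR, adjusted p = 0.831).

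For the promoters, 9 motifs were searched on both strands of the 11 RefSeq windows of 250 bases that the 10 genes have, 2 of them for *Ace*. CCAATNA was found in windows of *Treml4*, *Ear2*, *Eno3* and the second start of *Ace*, and in 14.2% of all windows. TATAAA was present in 12.4% of all windows, and CCCCACCC, a sequence that KLF factors bind, was found before *Spn* and in 9.05% of all windows. No window of the 10 genes held AAAGGTCA (the NR4A1 element, 1.34% of all windows), ATTTGCAT (the octamer, 1.6%), GAGGAAGT (a PU.1 core, 2.44%), TGACGTCA (1.55%) or TGACGTNA (2.52%, which includes every TGACGTCA). These searches say only which letters stand in the 250 bases.

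Since reads per gene grow with transcript length, levels were compared between genes as TPM, in which the counts are first divided by exon length. *Ace*, at 1076 ± 484 TPM, and *Nr4a1*, at 992 ± 317 TPM, were the highest (SD, n = 6 libraries), and *Ace* was the higher of both in 3 of the 6 libraries. *Adgre4* at 708 ± 243, *Ear2* at 682 ± 257 and *Treml4* at 643 ± 211 TPM followed, then *Spn* at 514 ± 243, *Cd300e* at 501 ± 272 and *Cx3cr1* at 436 ± 126 TPM. *Eno3*, at 376 ± 194 TPM, and *Pou2f2*, at 203 ± 62.4 TPM, were the lowest. Of the 9 neighbouring pairs in this order, only *Nr4a1* over *Adgre4* and *Treml4* over *Spn* held in all 6 libraries, by 0.49 ± 0.17 and 0.42 ± 0.37 on the log2 scale (SD, n = 6). The other neighbours changed places in at least 1 library. *Ace* ranked between 50 and 355 among all genes by TPM in a library and *Eno3* between 219 and 1645, so the Ly6C low genes were among the more abundant transcripts throughout.

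**Figure D2:**
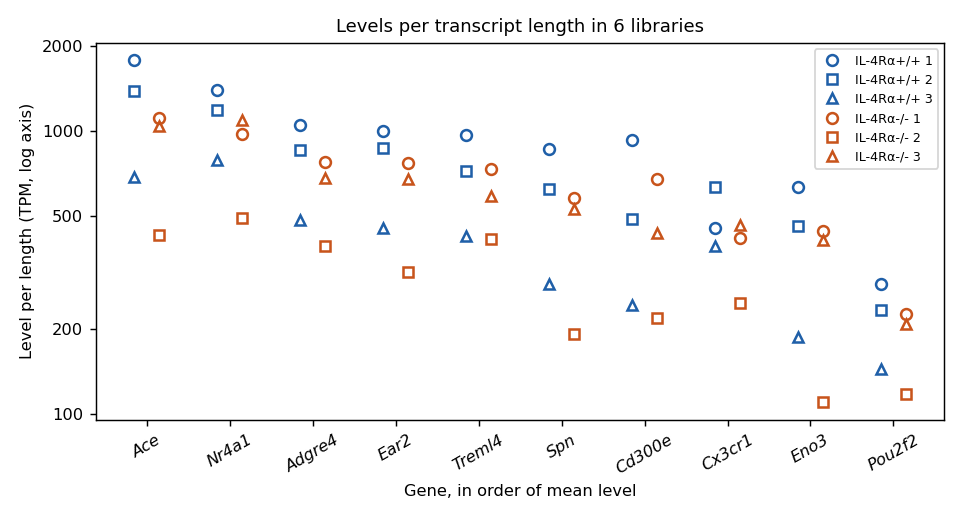
Level of the 10 Ly6C low genes per transcript length (TPM, log axis), in order of their mean over the 6 libraries, with 1 symbol per library. Levels within a gene span more than most steps between neighbouring genes: *Ace* runs from 431 to 1790 TPM.

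With regard to the genotype, 10 of the 10 genes had a lower log2 fold change in IL-4Rα-/- monocytes, against 48.5% of all genes tested. Because the 10 genes moved together from library to library, these directions are not 10 separate observations. The median log2 fold change was -0.37, against 0.01 over all genes tested. None of the 10 genes was called at an adjusted p of 0.15, the threshold of the study, and edgeR's quasi-likelihood test called 0 of all 13849 genes (0%). DESeq2 called 80 genes, or 0.571% of the genes to which it gave an adjusted p, and none of the 10 was among them, with adjusted p-values of 0.778 to 0.933. At an unadjusted p under 0.05 edgeR held 1120 genes, or 8.09% of those tested, and 0 of the 10. DESeq2 held 1208 genes at that p, or 4.70%, and 0 of the 10. The genotypes overlapped in all 10 genes, whereas 15.5% of the genes tested did not overlap, 7.63% with higher and 7.87% with lower levels in IL-4Rα-/- monocytes. Two-sided exact permutation tests of each gene's log2 CPM gave p-values between 0.400 and 0.800, where 3 mice against 3 allow no p below 0.10.

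The 95% intervals show which differences these 6 mice leave possible. They reached from -0.86 to 0.14 on the log2 scale for *Cx3cr1*, whose interval was the narrowest, and from -1.55 to 0.76 for *Eno3*. Each interval included 0. The counts behind these levels were between 1700 and 78958 per library, at which counting error is small beside the spread between mice.

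**Figure D3:**
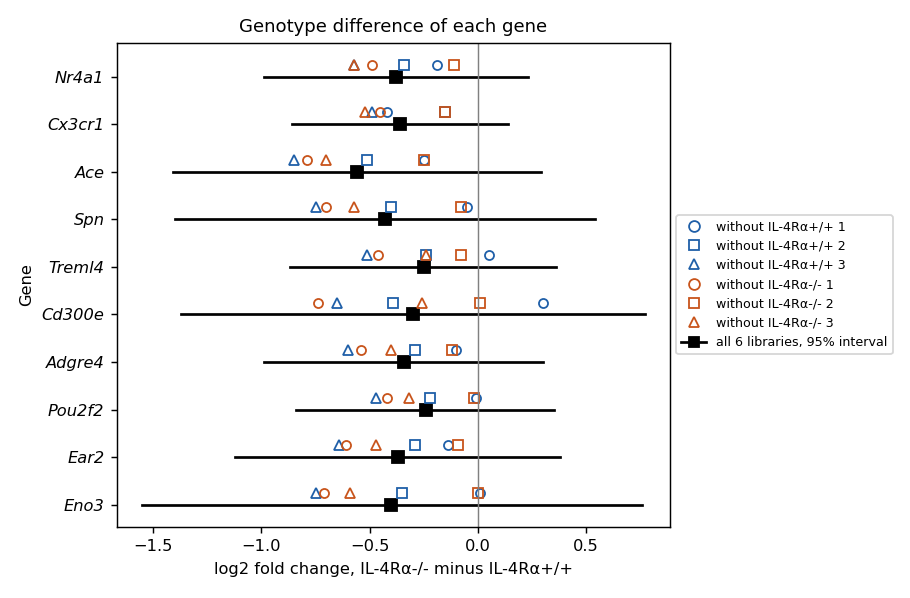
The log2 fold change of each Ly6C low gene, IL-4Rα-/- minus IL-4Rα+/+ (black squares, with 95% intervals from edgeR), with the values obtained after leaving out 1 library at a time (open symbols). All intervals cross 0, and without IL-4Rα+/+ replicate 1 or IL-4Rα-/- replicate 2 the values of all genes lie higher than with all 6 libraries, except *Cx3cr1* without the former, and those of *Cd300e*, *Eno3* and *Treml4* pass 0 in at least 1 of these fits.

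Single libraries moved this comparison. Without IL-4Rα+/+ replicate 3, the median log2 fold change of the 10 genes was -0.62 and the genotypes did not overlap in 7 of them, *Nr4a1*, *Ace*, *Spn*, *Adgre4*, *Pou2f2*, *Ear2* and *Eno3*, with adjusted p-values of 0.413 to 0.542 over the 10 genes in edgeR. In that fit of 2 against 3 libraries, 36.9% of the 14215 genes tested did not overlap, and 18.4% did so with lower levels in IL-4Rα-/- monocytes, as the 7 genes did. Without IL-4Rα+/+ replicate 1 the median was -0.07, and without IL-4Rα-/- replicate 2 it was -0.09. With the log2 level of *Xist* as a covariate, the median was -0.22 and the adjusted p-values ran from 0.775 to 0.998 in edgeR. IL-4Rα-/- replicate 2, in which 9 of the 10 genes had their lowest level, was also the IL-4Rα-/- library with the most *Il4ra* RNA, and the part of that in the levels was not tested.

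How the 10 genes varied together was described by centring the log2 CPM of each gene on its mean over the 6 libraries. The median of the 10 centred values was 0.64, 0.37 and -0.49 in IL-4Rα+/+ replicates 1, 2 and 3 and 0.24, -0.90 and 0.07 in IL-4Rα-/- replicates 1, 2 and 3. IL-4Rα-/- replicate 1 had 10 of 10 genes above their mean and IL-4Rα-/- replicate 3 had 8. *Treml4* and *Cd300e* were the genes below their mean there. The genotype thus held a median of 11.0% of the variance of the 10 genes, against 17.8% over all genes tested, while their level spanned a median of 1.49 on the log2 scale over the libraries, against 0.56 for all genes tested.

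The likeness of 2 genes was measured as the root mean square distance between their centred log2 CPM over the 6 libraries. Of the 45 pairs, *Adgre4* and *Pou2f2* were closest, at 0.06, followed by *Treml4* and *Pou2f2*, *Adgre4* and *Ear2*, *Treml4* and *Adgre4*, and *Ace* and *Spn*, each at 0.11. *Cx3cr1* and *Cd300e* were farthest apart, at 0.60. In IL-4Rα+/+ replicate 1 *Cx3cr1* was 0.10 above its mean, while *Nr4a1* was 0.55 above. Among all other genes tested, those nearest to *Nr4a1* were *Sesn3* at 0.05, *Sh2d3c* at 0.07 and *Cbx7* at 0.08. Those nearest to *Treml4* were *Fyn* at 0.04, *Cd300ld* at 0.06 and *Htra2* at 0.06.

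A wider list of 18 genes linked to Ly6C low monocytes moved in the same way over the libraries. In IL-4Rα+/+ replicate 1, 18 of 18 lay above their mean, and in IL-4Rα+/+ replicate 3 and IL-4Rα-/- replicate 2 none did. All 18 had a lower mean in IL-4Rα-/- monocytes, with a median log2 fold change of -0.45 and 0 called by edgeR. At an unadjusted p under 0.05, 2 of the 18 were lower, against 4.37% of all genes tested. *Notch2*, a receptor that takes part in the formation of Ly6C low monocytes, was at 705, 726 and 547 CPM in IL-4Rα+/+ replicates 1, 2 and 3 and at 469, 437 and 522 CPM in IL-4Rα-/- replicates 1, 2 and 3. Its log2 fold change was -0.47 with a standard error of 0.13 (edgeR, adjusted p = 0.618). It was the only gene of the 18 in which the genotypes did not overlap. Over all genes tested, 7.87% did not overlap with lower levels in IL-4Rα-/- monocytes. *Ceacam1*, an adhesion molecule, had a log2 fold change of -0.78 with a standard error of 0.28 (edgeR, adjusted p = 0.618), and its ranges overlapped. *Itgal* and *Csf1r*, the most abundant of the 18, had log2 fold changes of -0.43 and -0.16 with adjusted p-values of 0.658 and 0.729 in edgeR.

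Ly6C high genes were counted in the same libraries as the counterpart. In IL-4Rα+/+ replicate 3 and in IL-4Rα-/- replicate 2, 15 of 15 lay above their own mean, and 13 of the 15 had their highest level in IL-4Rα-/- replicate 2. In IL-4Rα+/+ replicate 1, 0 of 15 lay above their mean and 14 had their lowest level. *Ccr2*, the receptor that brings Ly6C high monocytes out of the bone marrow, was at 380, 1045 and 1668 CPM in IL-4Rα+/+ replicates 1, 2 and 3 and at 826, 2008 and 979 CPM in IL-4Rα-/- replicates 1, 2 and 3. *Ccr2* was named after its values were seen. Of the 15 genes, 14 had a higher and 1 a lower mean in IL-4Rα-/- monocytes, with a median log2 fold change of 0.37, and 0 were called or at an unadjusted p under 0.05 in edgeR.

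The balance of both lists, the mean log2 CPM of the 10 Ly6C low genes minus that of the 15 Ly6C high genes, was 1.68, 0.49 and -1.29 in IL-4Rα+/+ replicates 1, 2 and 3 and 0.40, -1.95 and 0.07 in IL-4Rα-/- replicates 1, 2 and 3. The genotypes overlapped, with means of 0.29 ± 1.49 and -0.49 ± 1.27 (SD, n = 3 each) and a difference of -0.78. The difference was smaller than the SD within either genotype. It was -1.57 without IL-4Rα+/+ replicate 3, -0.09 without IL-4Rα+/+ replicate 1 and -0.06 without IL-4Rα-/- replicate 2. The mean of the Ly6C low genes alone was 9.02 ± 0.62 in IL-4Rα+/+ and 8.65 ± 0.63 in IL-4Rα-/- monocytes (log2 CPM, SD, n = 3 each), and that of the Ly6C high genes was 8.73 ± 0.89 and 9.15 ± 0.64. Levels on the CPM scale share 1 total in each library. The Ly6C low genes summed to 3138 to 9444 CPM of it and the Ly6C high genes to 13225 to 34229 CPM. The part of this shared total in the opposite order of both lists was not tested.

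**Figure D4:**
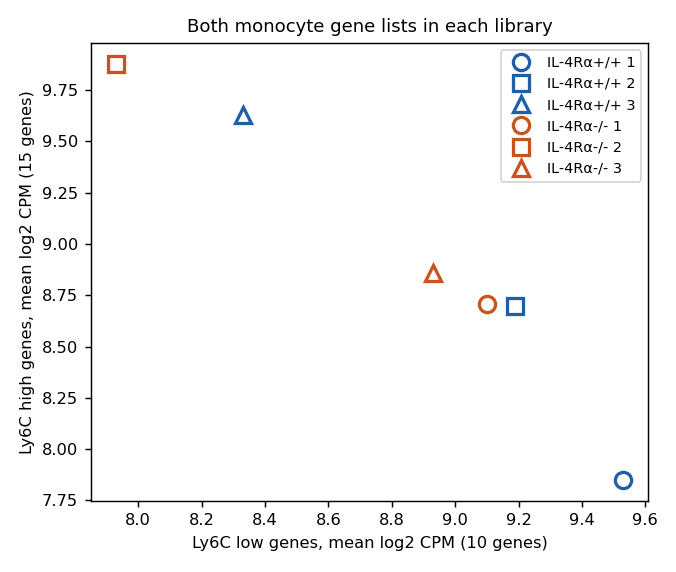
Mean log2 CPM of the 15 Ly6C high genes (vertical) against that of the 10 Ly6C low genes (horizontal), with 1 symbol per library. IL-4Rα+/+ replicate 1, at 9.53 and 7.85, and IL-4Rα-/- replicate 2, at 7.93 and 9.88, lie at opposite ends, and both genotypes spread along the diagonal.

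**Figure D5:**
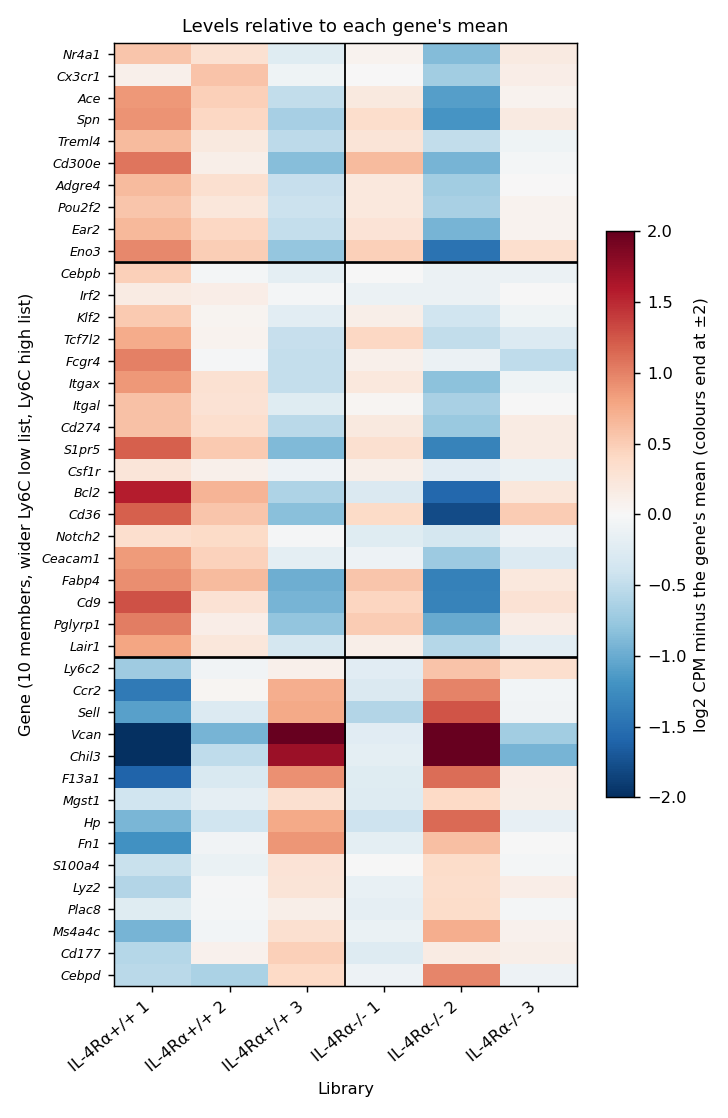
Centred log2 CPM (colour, ending at 2 above or below the gene's mean) of the 10 Ly6C low genes, the wider Ly6C low list of 18 genes and the 15 Ly6C high genes in rows, with the 6 libraries in columns. IL-4Rα+/+ replicate 3 and IL-4Rα-/- replicate 2 are blue in the upper blocks and red in the lowest, and IL-4Rα+/+ replicate 1 is the reverse.

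Markers of other spleen cells differed between the libraries as well. Of 9 red pulp macrophage genes, 8 had a higher mean in IL-4Rα-/- monocytes and 7 were higher at an unadjusted p under 0.05, against 3.72% of all genes tested. Their summed level was 2842 to 3390 CPM in IL-4Rα+/+ and 3864 to 6039 CPM in IL-4Rα-/- libraries, highest in IL-4Rα-/- replicate 1, where all 10 Ly6C low genes lay above their mean. Of 8 erythroid genes, 8 had a higher mean and 7 were higher at that p, with summed levels of 58.5 to 99.1 and 147 to 350 CPM. Of 9 neutrophil genes tested, 8 had a higher mean and 5 were higher at that p, with summed levels over all 10 of 358 to 675 and 461 to 1025 CPM, highest in IL-4Rα-/- replicate 2. *Csf3r*, the largest part of the neutrophil sum in each library, was at 299 to 438 CPM, with a log2 fold change of 0.01. The defining neutrophil marker *Ly6g* was at no more than 0.315 CPM. *S100a8* and *S100a9* of the same list reached 91.3 and 75.5 CPM in IL-4Rα-/- replicate 2. Of 6 eosinophil genes tested, 5 had a higher mean and 3 were higher at that p, with summed levels over all 7 of 68.6 to 72.1 and 98.7 to 157 CPM. edgeR called none of these genes, as it called none of all genes tested. DESeq2 called *Hba-a1* (adjusted p = 0.0424) and *Slc4a1* (adjusted p = 0.0471) of the erythroid, *Camp* (adjusted p = 0.123) of the neutrophil and *Ear1* (adjusted p = 0.142) of the eosinophil genes, each higher in IL-4Rα-/- monocytes. *Hba-a1* and *Ear1* have close copies in the genome, which makes their counts uncertain. The sums for 9 B cell genes were 73.2 to 156 and 73.2 to 236 CPM, for 9 T and NK cell genes 48.7 to 120 and 44.1 to 114 CPM, and for 7 dendritic cell genes 203 to 284 and 177 to 243 CPM. *Cd3e* of T cells was at no more than 6.51 CPM. These last 3 sums were lowest in IL-4Rα+/+ replicate 3 and IL-4Rα-/- replicate 2, the libraries in which the Ly6C low genes were low, and highest in IL-4Rα+/+ replicate 2 or IL-4Rα-/- replicate 3. The part of other cells in the levels of the Ly6C low genes was not tested.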

How the data were processed

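The 6 libraries, 3 of each genotype and each from another mouse, were grouped by the genotype in the labels. Monocytes were enriched by negative selection and libraries were prepared from polyadenylated RNA with a directional kit. Reads of 75 bp, sequenced from 1 end, were mapped to GRCm38 by the authors with STAR 2.6.1a, and the deposited values are raw counts of reads per gene. Which strand column of the counts was kept is not given in the sources used here. STAR's totals of reads that fell on no single gene, 21.1% to 22.8% of each file's total, were left out. Symbols, positions and lengths came from a Gencode release near the authors' one, which held 55240 of the 55421 gene identifiers.

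Genes were kept by filterByExpr (minimum count 10), scaled by TMM and fitted with edgeR 4.0.16 (R 4.3.3), whose quasi-likelihood p-values were adjusted by Benjamini and Hochberg over 13849 genes and called at the study's threshold of 0.15. DESeq2 1.42.0 was the alternative test. Log2 CPM used a prior count of 2, and TPM used merged exon lengths. The intervals were the log2 fold change ± 1.96 standard errors, the normal quantile for 95%. edgeR's test allows for the few libraries and is stricter, so these intervals cover less than 95%. Promoter windows came from RefSeq (GRCm38.p6), and all 10 genes matched by name. For *Pou2f2* and *Eno3*, the bases checked after the RefSeq start were not found in a Gencode transcript of the gene. Proteins were not used here, and 1 withheld item is not reported here. The steps were tested on simulated data.

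The 10 genes and all lists were chosen with earlier results of these data known. Besides the 10 genes and *Il4ra*, genes could be named from each list if they had 1 of the 4 smallest unadjusted p-values under 0.05 or 1 of the 2 highest mean CPM, if they were among the 3 nearest to *Nr4a1* or *Treml4*, or as relatives of *Ear2*. *Epx*, *Ly6g*, *Cd3e*, *Fos*, *Ccr2*, *Xist*, *Nr4a2*, *Nr4a3* and genes overlapping a listed gene were added after their values were seen. Nothing shows whether replicate numbers mark shared batches, so the unpaired fit was used. The mice are separate animals, and the p-values cover the spread between these 6. The alternatives changed the test, scaling, filter, threshold, covariates, block and list members, removed a trend with transcript length, and left out each library in turn.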

Additional observations from a re-analysis of the deposited data

How the results depend on the processing

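Of the alternatives, DESeq2 called 80 genes in place of 0, none of them among the 10 Ly6C low genes. RLE size factors, library totals alone, no filter on low counts, removal of the trend with transcript length and the *Xist* covariate left all 10 log2 fold changes below 0, with 0 genes called by edgeR, and at the stricter threshold of 0.05 edgeR also called 0. Leaving out 1 library at a time gave 0 to 7 genes of the 10 without overlap, the 7 without IL-4Rα+/+ replicate 3, a fit in which 36.9% of the genes tested did not overlap, and 0 of the 10 called each time. Directions turned for *Cd300e*, at 0.30 without IL-4Rα+/+ replicate 1 and 0.01 without IL-4Rα-/- replicate 2, for *Eno3*, at 0.01 and 0.00 without the same libraries, and for *Treml4*, at 0.05 without IL-4Rα+/+ replicate 1. The log2 fold changes over these fits ran from -0.85 to -0.25 for *Ace*, -0.60 to -0.10 for *Adgre4*, -0.74 to 0.30 for *Cd300e*, -0.52 to -0.15 for *Cx3cr1*, -0.64 to -0.09 for *Ear2*, -0.75 to 0.01 for *Eno3*, -0.57 to -0.11 for *Nr4a1*, -0.47 to -0.01 for *Pou2f2*, -0.75 to -0.05 for *Spn* and -0.51 to 0.05 for *Treml4*. The cause was not tested. Without *Nr4a1* and *Ear2*, the median log2 fold change of the other genes was -0.35 and the balance with the Ly6C high genes differed by -0.77.

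Deviations of same-numbered libraries from their genotype means had correlations of 0.185, -0.271 and -0.296. These cannot decide whether the replicate numbers mark pairs, because the deviations of only 3 libraries per genotype sum to 0. With the replicate block, the median log2 fold change of the 10 genes was -0.38, their adjusted p-values were 0.812 to 0.880, 0 genes were called and 765 genes were at an unadjusted p under 0.05. With 3 libraries per genotype the 95% intervals of all 10 genes include 0, although each gene had at least 1700 counts in every library.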
